A study of Mus musculus with 18 samples.

Results

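The 10 genes described here encode ETS transcription factors that are expressed in blood cells, chosen by gene symbol from the 34896 genes of the expression table. They are Spi1, which encodes PU.1, and Ets1, Ets2, Fli1, Erg, Elf1, Elf4, Etv6, Gabpa and Elk3. All 10 symbols were found on 1 row each, and all 10 passed the filter on low values (at least 1 TPM in at least 3 of 9 libraries). TPM is a transcript's share of all transcripts, corrected for transcript length, on a scale that sums to 1000000 in each library. The cells came from bone marrow of C57BL/6 mice aged 6 to 12 weeks. RNA-seq was done on 3 libraries each of wild type (WT) granulocyte-monocyte progenitors (GMP, sorted as lineage-negative, cKIT+ and SCA1- cells with CD16/32 and CD34), of pre-neutrophils (preNeu, sorted as MAC-1+ GR1+ cells with cKIT and CXCR4) and of mature neutrophils (matNeu, MAC-1+ GR1+ cells without SiglecF and with CXCR2). ChIP-seq with an antibody against CHD4, the ATPase of the NuRD nucleosome-remodeling and deacetylase complex, was done on 1 library of WT GMPs and 1 library of GMPs from Gfi1-/- mice (Gfi1KO), which lack the repressor GFI1. ChIP-seq of H3K4me2, a histone mark of promoters and enhancers, was done on 1 library of WT cells per stage, and ATAC-seq, which marks open chromatin, gave 1 list of peaks for which the stage could not be settled, since the lists labelled preNeu and matNeu held the same intervals. For GMPs the marrow of several bones was pooled before sorting, and no label says that libraries of a group came from different animals, so that p-values measure the spread between libraries, which may be technical.

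ETS factors share a DNA-binding domain that recognizes the core GGAA, and the bases around this core differ between subfamilies. PU.1 is required for the formation of granulocytes and monocytes and acts in a dose-dependent manner with C/EBP and IRF partners. FLI1, ERG and ETV6 maintain blood stem and progenitor cells, ETS1 is best known from lymphocytes, GABPA drives housekeeping promoters together with a beta subunit, and ETV6 and ELK3 act mostly as repressors.

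The titles of the samples were used for grouping because another label field gave a different cell type for 13 of 18 samples, among them all 9 RNA-seq libraries. Marker genes separated the libraries as the titles do. The summed TPM of 7 GMP markers (Cd34, Kit, Mpo, Elane, Prtn3, Ctsg, Flt3) was 45281 to 47165 in GMPs and 10.1 to 33.2 in matNeu cells, that of 6 preNeu markers (such as Ngp, Camp and Ltf) was 145613 to 171432 in preNeu cells and at most 6847 elsewhere, and that of 7 matNeu markers (such as Cxcr2, Mmp9 and Il1b) was 22484 to 23764 in matNeu cells and at most 1221 elsewhere. Correlation between libraries of a cell type was at least 0.974 on log2(TPM + 1), and the read depth is unknown. The median log2 change of all 13061 tested genes was -0.52 in preNeu cells against GMPs, -0.32 in matNeu against preNeu cells and -0.92 in matNeu cells against GMPs. The cause of this shift was not tested, and changes relative to it are given after the calls.

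To show what CHD4-bound chromatin at these genes looks like, the bases around the strongest CHD4 summit that WT and Gfi1KO GMPs shared are given for each of the 4 genes with CHD4 peaks in both genotypes, read from GRCm38 on the plus strand with 100 bases on either side of the summit. Capitals mark the ETS core GGAA or its reverse complement TTCC. The windows lie in introns of Etv6 (chr6:134115735-134115935), Fli1 (chr9:32521535-32521735), Erg (chr16:95439256-95439456) and Elf1 (chr14:79533389-79533589).
Etv6 CHD4 site: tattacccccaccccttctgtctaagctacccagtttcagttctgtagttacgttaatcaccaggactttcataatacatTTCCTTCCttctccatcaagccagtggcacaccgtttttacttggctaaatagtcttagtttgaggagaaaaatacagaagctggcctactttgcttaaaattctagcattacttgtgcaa
Fli1 CHD4 site: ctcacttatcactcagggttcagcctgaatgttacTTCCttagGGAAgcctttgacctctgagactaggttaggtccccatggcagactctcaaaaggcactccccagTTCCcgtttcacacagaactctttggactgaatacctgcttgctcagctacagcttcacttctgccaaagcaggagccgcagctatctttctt
Erg CHD4 site: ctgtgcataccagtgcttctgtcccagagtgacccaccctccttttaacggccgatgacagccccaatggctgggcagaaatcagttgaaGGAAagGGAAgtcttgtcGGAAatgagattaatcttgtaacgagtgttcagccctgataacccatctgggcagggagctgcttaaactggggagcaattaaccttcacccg
Elf1 CHD4 site: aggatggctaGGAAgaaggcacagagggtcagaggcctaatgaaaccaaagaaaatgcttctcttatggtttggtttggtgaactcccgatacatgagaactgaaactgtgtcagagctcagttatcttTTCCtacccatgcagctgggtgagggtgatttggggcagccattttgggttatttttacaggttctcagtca
The Etv6 and Elf1 windows held 2 copies of the core each, and the Fli1 and Erg windows 3 each, counted on both strands.

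Ets2 and Gabpa had no CHD4 peak but an H3K4me2 peak over the promoter in every stage. The 250 bases before their RefSeq starts (GRCm38.p6, plus strand) are shown for contrast, with the same use of capitals. They lie at chr16:95702157-95702406 for Ets2 and chr16:84834874-84835123 for Gabpa. The GENCODE genes start earlier, at chr16:95702075 and chr16:84834925, so that the Ets2 stretch and most of the Gabpa stretch lie inside the gene by that annotation.
Ets2 promoter: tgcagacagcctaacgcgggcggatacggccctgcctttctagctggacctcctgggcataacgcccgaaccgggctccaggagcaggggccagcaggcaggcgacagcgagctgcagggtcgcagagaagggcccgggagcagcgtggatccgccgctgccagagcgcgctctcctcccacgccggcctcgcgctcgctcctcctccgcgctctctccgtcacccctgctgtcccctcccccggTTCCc
Gabpa promoter: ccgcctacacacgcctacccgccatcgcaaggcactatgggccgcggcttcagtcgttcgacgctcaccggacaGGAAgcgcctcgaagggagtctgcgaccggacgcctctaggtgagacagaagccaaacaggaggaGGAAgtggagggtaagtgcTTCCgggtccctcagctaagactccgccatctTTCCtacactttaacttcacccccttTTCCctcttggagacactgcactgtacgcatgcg
The Ets2 stretch held 1 copy of the core and the Gabpa stretch 5, of which 1 lay in GAGGAA, the PU.1 type of site, and 1 in CGGAAG, the type bound by GABPA. Among the 7 genes that had an entry in the RefSeq promoter table (Ets2, Erg, Elf1, Elf4, Etv6, Gabpa and Elk3), Gabpa alone had CGGAAG on either strand of its first promoter, and 17.2% of all 27025 promoters of the same length had it. Spi1, Ets1 and Fli1 had no entry.

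Across all members, 94 of the 95 windows around CHD4 summits of WT GMPs held GGAA on either strand, against 97.1% of 35728 windows of the same length at all CHD4 summits. GAGGAA was found in 43 of the 95 (45.3%, against 46.1% of all). CGGAAG was found in 5 (5.26%, against 4.76%). AAATCA, the core bound by GFI1, was found in 11 (11.6%, against 12.1%). GAGGAA and CGGAAG both contain GGAA. On these letters the CHD4 sites at ETS genes looked like CHD4 sites in general, and each share lay within 2 percentage points of that over all sites.

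Between GMPs and preNeu cells, 6 of the 10 genes rose, 3 fell and 1 did not pass the test (limma on log2(TPM + 1) over all 13061 genes, two-sided, Benjamini-Hochberg adjusted p under 0.05). The background was high, since 59.0% of all tested genes were called, 14.7% as higher and 44.3% as lower. Spi1, Ets1, Ets2, Fli1, Erg and Elf4 were higher in preNeu cells, and Elf1, Etv6 and Elk3 were lower. The median log2 change was 0.82 over the 10 genes and -0.52 over all tested genes.

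Between preNeu and matNeu cells, 4 of the 10 genes rose (Spi1, Ets2, Elf1 and Elk3), 4 fell (Ets1, Fli1, Erg and Gabpa) and 2 did not pass the test, where 62.8% of all tested genes were called, 22.9% as higher and 39.8% as lower. Against GMPs, matNeu cells had 4 higher (Spi1, Ets1, Ets2 and Elf4) and 5 lower members (Erg, Elf1, Etv6, Gabpa and Elk3), and Fli1 did not pass the test. In that comparison 76.9% of all tested genes were called, 22.8% as higher and 54.1% as lower. The comparisons share libraries and are therefore not independent of each other. Relative to the median of all genes, the log2 changes from GMP to preNeu were 4.53 for Ets1, 1.63 for Erg, 1.60 for Spi1, 1.43 for Elf4, 1.42 for Ets2, 1.26 for Fli1, 0.62 for Gabpa, -0.36 for Etv6, -1.41 for Elf1 and -2.87 for Elk3. From preNeu to matNeu they were 2.64 for Ets2, 1.72 for Spi1, 1.58 for Elk3, 1.19 for Elf1, 0.54 for Etv6, 0.41 for Elf4, -0.40 for Fli1, -1.06 for Gabpa, -2.01 for Ets1 and -3.67 for Erg. From GMP to matNeu they were 4.14 for Ets2, 3.40 for Spi1, 2.61 for Ets1, 1.93 for Elf4, 0.96 for Fli1, 0.26 for Etv6, -0.13 for Elf1, -0.35 for Gabpa, -1.20 for Elk3 and -1.96 for Erg. Each called member kept its sign on this scale, except Etv6 in matNeu cells against GMPs. The libraries of the compared groups did not overlap for 9, 8 and 9 members in the same order of comparisons, where 65.5%, 66.6% and 78.6% of all tested genes did not overlap.

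**Figure D1:**
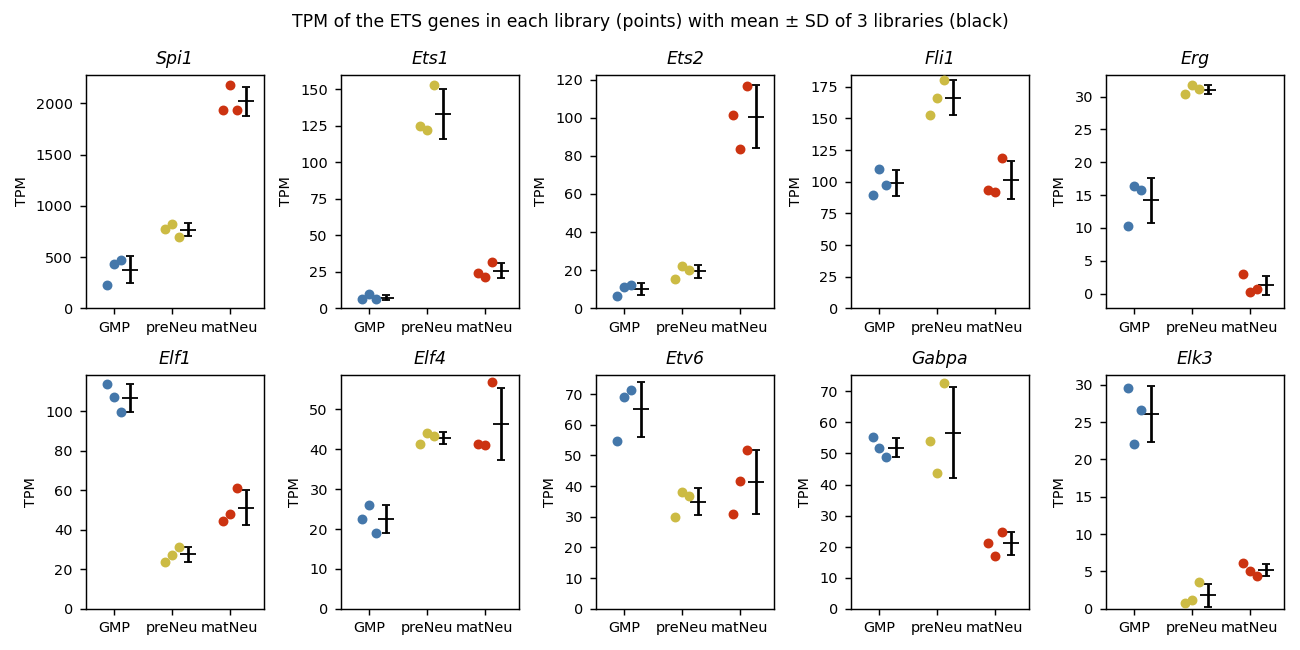
TPM of the 10 ETS genes in each RNA-seq library, with a linear axis per gene; points are the 3 libraries of GMP, preNeu and matNeu cells and black marks their mean with SD. Spi1 and Ets2 were highest in matNeu cells, Ets1, Fli1 and Erg in preNeu cells, and Elf1 and Elk3 in GMPs.

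**Figure D2:**
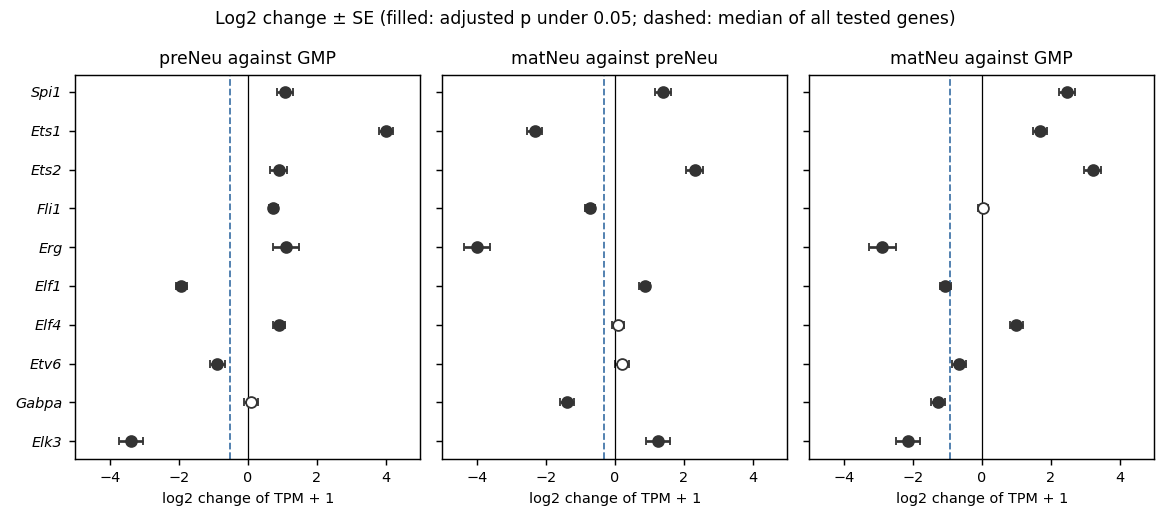
Log2 change of TPM + 1 with its SE for each gene in the 3 comparisons; filled points passed an adjusted p of 0.05, open points did not, and the dashed line is the median of all 13061 tested genes. Ets1 had the highest value in preNeu against GMP (4.01) and Erg the lowest in matNeu against preNeu (-3.99).

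Spi1 (ENSMUSG00000002111, chr2:91082390-91115756 on the plus strand of GRCm38) was the most abundant member in every stage and, like Ets2, rose at both steps. Its TPM was 229, 438 and 472 in GMPs, 776, 824 and 698 in preNeu cells and 1937, 2183 and 1939 in matNeu cells. The 3 groups did not overlap, and GMP replicate 1 was low within its group. Monocytes also make PU.1, and the summed TPM of 6 monocyte and macrophage markers (Ccr2, Cx3cr1, Adgre1, Ly6c2, Csf1r and Mertk) was 2942 to 3617 in GMPs, 1668 to 2208 in preNeu cells and 1125 to 1493 in matNeu cells. Most of that sum was Ly6c2. Adgre1 stood at 10.7 to 14.9 TPM in GMPs, 7.45 to 13.9 in preNeu cells and 75.7 to 97.0 in matNeu cells. Csf1r stood at 188 to 232, 8.22 to 22.3 and 253 to 350 TPM, and both were highest in matNeu cells as Spi1 was. Ccr2 went the other way, with 110 to 154, 2.52 to 5.41 and 0.269 to 0.891 TPM in the same order. Cx3cr1 did too, with 23.2 to 27.8, 0.193 to 2.71 and 0.0676 to 1.56 TPM. Ly6c2 was also highest in GMPs, and Mertk was highest in preNeu cells, at 2.28 to 3.47 TPM. The part of monocytes in the level of Spi1 was not tested. The mean rose from 380 ± 132 (SD, n = 3) to 766 ± 63.6 and 2020 ± 142 TPM, and the log2 change was 1.08 (SE 0.23, limma adjusted p = 0.00208) at the first step and 1.40 (SE 0.23, adjusted p = 0.000292) at the second. Without GMP replicate 1 the log2 change at the first step was 0.75 and still passed the test. Spi1 made up 47.4% ± 9.13 (SD, n = 3) of the summed TPM of the 10 genes in GMPs, 59.8% ± 4.21 in preNeu cells and 83.6% ± 2.82 in matNeu cells.

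In bulk RNA, fewer cells of a type and less RNA per cell cannot be told apart, and this holds for every gene here. Outside the members, the tested genes whose log2(TPM + 1) followed Spi1 most closely over the 9 libraries were Atg3, an enzyme of autophagy (Pearson r = 0.994), Fam217b (r = 0.988) and Gucd1 (r = 0.985). These values describe 9 libraries that fall into 3 cell types. Atg3 stood at 97.3 ± 27.8 TPM in GMPs, 213 ± 0.391 in preNeu cells and 695 ± 38.5 in matNeu cells (SD, n = 3).

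Ets2 (ENSMUSG00000022895, chr16:95702075-95721051, plus strand), an ETS1 paralog that responds to RAS signalling, rose late. Its TPM was 6.71, 11.5 and 12.2 in GMPs, 15.4, 22.5 and 20.2 in preNeu cells and 102, 83.6 and 117 in matNeu cells. The groups did not overlap, and the matNeu mean was 9.93-fold that of GMPs. The log2 change was 0.90 (SE 0.24, limma adjusted p = 0.00859) at the first step and 2.32 (SE 0.24, adjusted p = 9.99e-06) at the second.

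Ets1 (ENSMUSG00000032035, chr9:32636221-32757820, plus strand) had a peak in preNeu cells. It stood at 6.15, 9.58 and 6.54 TPM in GMPs, 125, 122 and 153 in preNeu cells and 24.5, 21.6 and 31.8 in matNeu cells. The preNeu mean was 18.0-fold that of GMPs and 5.13-fold that of matNeu cells, with no overlap between groups. The log2 change was 4.01 (SE 0.21, limma adjusted p = 1.77e-07) from GMP to preNeu and -2.33 (SE 0.21, adjusted p = 3.14e-06) from preNeu to matNeu. The deposited table gives the transcript type of the Ets1 row as retained intron, and that of Spi1 as protein coding.

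Because Ets1 is high in lymphocytes, their markers were looked at in the same libraries. Of the B cell markers, Cd79a stood at 0 to 0.603 TPM in GMPs, 5.68 to 8.58 in preNeu cells and 16.2 to 33.1 in matNeu cells. Ms4a1 stood at 0.421 to 0.523, 2.13 to 2.84 and 8.33 to 16.0 TPM in the same order, and Cd79b at 77.9 to 93.7, 17.3 to 27.4 and 25.1 to 53.9 TPM. Of 7 T and NK cell markers (Cd3e, Cd3d, Cd3g, Lck, Cd2, Ncr1 and Nkg7), 4 were under 1 TPM in every GMP library, 4 in every preNeu library and 1 in every matNeu library, with Cd3e at most 0.101 TPM in any library. The sum of that list, mostly Nkg7, was 468 to 618 TPM in GMPs, 219 to 253 in preNeu cells and 15.8 to 19.8 in matNeu cells. Cd3d stood at 2.34 to 3.29 TPM in GMPs, 0.768 to 2.88 in preNeu cells and 6.57 to 14.1 in matNeu cells. Cd2 stood at 0, 0.439 to 0.866 and 1.94 to 4.13 TPM in the same order. Lck stood at 2.07 to 8.04, 0 to 1.94 and 0.854 to 1.93 TPM in that order. Of the markers with values here, Cd79a, Ms4a1, Cd3d and Cd2 were highest in matNeu cells, and Cd79b, Nkg7 and Lck in GMPs. The preNeu and matNeu libraries of Cd79b overlapped, as did those of B cell markers without values here. The part of lymphocytes in the level of Ets1 was not tested.

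Fli1 and Erg encode closely related factors, and both were highest in preNeu cells. Fli1 (ENSMUSG00000016087, chr9:32422204-32542861, minus strand) stood at 89.5, 110 and 97.1 TPM in GMPs, 153, 166 and 180 in preNeu cells and 93.7, 91.8 and 119 in matNeu cells. It rose by 0.74 on the log2 scale at the first step (SE 0.14, limma adjusted p = 0.00105) and the change at the second was -0.71 (SE 0.14, adjusted p = 0.00114). In matNeu cells against GMPs its log2 change was 0.03 (SE 0.14, adjusted p = 0.847), 0.96 above the median of all genes, and under both scalings of TPM that were tried it was called as higher in matNeu cells (0.91 and 0.54).

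Erg (ENSMUSG00000040732, chr16:95359169-95586593, minus strand) stood at 10.3, 16.4 and 15.8 TPM in GMPs, 30.3, 31.7 and 31.2 in preNeu cells and 2.93, 0.244 and 0.697 in matNeu cells. The preNeu libraries lay close together and above all others, and 2 of the 3 matNeu libraries lay under 1 TPM. From preNeu to matNeu cells the log2 change was -3.99 (SE 0.38, limma adjusted p = 5.08e-06), the lowest of the 10 genes. The rise from GMP to preNeu (1.11, SE 0.38, adjusted p = 0.0286) did not pass the test with a pseudocount of 0.1 (adjusted p = 0.159), without the filter on TPM (0.0629), or when GMP replicate 1 (0.096), preNeu replicate 1 (0.0641), preNeu replicate 2 (0.0679) or preNeu replicate 3 (0.0658) was left out.

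Endothelial cells and megakaryocytes also express Erg and Fli1. Of 5 endothelial markers (Cdh5, Kdr, Tek, Emcn and Esam), all 5 were under 1 TPM in every preNeu library, with Cdh5, Tek, Emcn and Esam listed at 0, and their sum was 0.0399 to 0.09 TPM in preNeu cells, 3.07 to 3.40 in GMPs and 0.309 to 0.375 in matNeu cells. The sum of 5 megakaryocyte markers (Pf4, Itga2b, Gp1ba, Gp9 and Ppbp) was 36.4 to 51.2 TPM in GMPs, 3.09 to 7.25 in preNeu cells and 6.63 to 8.24 in matNeu cells. The endothelial sum was lowest in preNeu cells, and the megakaryocyte sums of preNeu and matNeu cells overlapped. The part of these cells in the levels of Erg and Fli1 was not tested.

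Erg and Ets2 are neighbours on chromosome 16, 115 kb apart, and Fli1 and Ets1 are neighbours on chromosome 9, 93.4 kb apart, with no protein-coding gene of the annotation between the genes of a pair. From preNeu to matNeu cells Ets2 rose by 2.32 on the log2 scale and Erg changed by -3.99, whereas Ets1 and Fli1 both fell, by values of -2.33 and -0.71.

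Elf1 and Elk3 were lowest in preNeu cells. Elf1 (ENSMUSG00000036461, chr14:79481194-79582494, plus strand), which binds promoters of many blood genes, stood at 114, 107 and 99.3 TPM in GMPs, 23.8, 27.3 and 31.4 in preNeu cells and 44.5, 47.9 and 61.1 in matNeu cells, with no overlap between groups. It fell by 1.93 on the log2 scale (SE 0.16, limma adjusted p = 4.83e-06) and then rose by 0.87 (SE 0.16, adjusted p = 0.000802). Its level in matNeu cells against GMPs was lower by -1.06 in log2 units (adjusted p = 0.000127), which is -0.13 relative to the median of all genes, and under median-of-ratios scaling it did not pass the test (adjusted p = 0.252).

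Elk3 (ENSMUSG00000008398, chr10:93247414-93311135, minus strand), a ternary complex factor that binds with SRF, stood at 29.5, 22.0 and 26.6 TPM in GMPs, 0.751, 1.13 and 3.53 in preNeu cells and 6.09, 5.05 and 4.42 in matNeu cells. The GMP libraries lay far above all others, and the preNeu libraries differed by several-fold among themselves. The log2 change was -3.39 (SE 0.34, limma adjusted p = 1.58e-05) at the first step and 1.26 (SE 0.34, adjusted p = 0.00816) at the second. In matNeu cells against GMPs it was -2.13 (adjusted p = 0.000182), and under quantile normalization it did not pass the test (-0.73, adjusted p = 0.0585).

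Elf4 (ENSMUSG00000031103, chrX:48411046-48463132, minus strand), which restrains proliferation of lymphocytes and stem cells, rose at the first step. It stood at 22.5, 26.1 and 19.0 TPM in GMPs, 41.2, 44.1 and 43.2 in preNeu cells and 41.3, 41.1 and 56.8 in matNeu cells. The log2 change was 0.91 (SE 0.18, limma adjusted p = 0.00132) at the first step and 0.10 (SE 0.18, adjusted p = 0.666) at the second, where the libraries of both groups overlapped. Under median-of-ratios scaling (0.46, adjusted p = 0.0294) and quantile normalization (0.45, adjusted p = 0.0353) Elf4 was called as higher at the second step too.

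Etv6 (ENSMUSG00000030199, chr6:134035700-134270158, plus strand) stood at 54.8, 69.2 and 71.3 TPM in GMPs, 29.9, 38.2 and 36.7 in preNeu cells and 30.9, 41.6 and 51.8 in matNeu cells. Each GMP library lay above all libraries of the later stages. The log2 change from GMP to preNeu was -0.88 (SE 0.20, limma adjusted p = 0.00366), which is -0.36 relative to the median of all genes, and did not pass the test under either scaling (adjusted p = 0.128 and 0.0722). From preNeu to matNeu cells it was 0.22 (adjusted p = 0.377), and it was called as higher under median-of-ratios scaling (0.58, adjusted p = 0.0206) and quantile normalization (0.60, adjusted p = 0.0136). In matNeu cells against GMPs the change was -0.66 (adjusted p = 0.0122), and it turned positive under median-of-ratios scaling (0.21, adjusted p = 0.332) and quantile normalization (0.18, adjusted p = 0.377).

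Gabpa (ENSMUSG00000008976, chr16:84834925-84863779, plus strand) was lowest in matNeu cells. It stood at 55.1, 51.8 and 48.8 TPM in GMPs, 54.0, 43.6 and 72.5 in preNeu cells and 21.3, 17.1 and 24.7 in matNeu cells. The matNeu libraries lay under all others, and the log2 change against preNeu cells was -1.37 (SE 0.20, limma adjusted p = 0.000149). From GMP to preNeu it was 0.10 (SE 0.20, adjusted p = 0.708), which under both scalings was called as higher (0.60 and 0.64). In matNeu cells against GMPs it was -1.28 (adjusted p = 0.000166), and this did not pass the test under median-of-ratios scaling (-0.42, adjusted p = 0.0677) or quantile normalization (-0.25, adjusted p = 0.268).

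In order of mean TPM, Spi1 stood first in every stage with no overlap with the next gene. In GMPs it was followed by Elf1 and Fli1, whose libraries overlapped, then by Etv6 and Gabpa, and the lowest were Erg, Ets2 and Ets1, of which neighbours overlapped. In preNeu cells Fli1 and Ets1 came next and overlapped, and Elk3 stood last. In matNeu cells Fli1 and Ets2 came next and overlapped, neighbours from Elf1 through Elf4, Etv6 and Ets1 to Gabpa overlapped as well, and Elk3 and Erg stood last without overlap. Ets1 thus moved from the last place in GMPs to the third in preNeu cells, and Erg from the seventh in preNeu cells to the last in matNeu cells.

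The other 17 genes of the ETS family were mostly low. Of these, 8 did not reach the filter on TPM, and of the 9 tested 2 were higher and 1 was lower in matNeu cells against GMPs, against 22.8% and 54.1% of all genes. Under median-of-ratios scaling 5 were higher and 0 lower, and under quantile normalization 7 and 0. The shares of all genes given here are those of TPM as deposited. Under these scalings the median log2 change of all genes was -0.20 and 0.03. The median log2 change of the 9 was 0.01 in TPM as deposited. At the first step 2 of the 9 were higher and 3 lower (14.7% and 44.3% of all genes), and at the second 4 and 1 (22.9% and 39.8%). Spib, the PU.1 paralog of B cells, stood at 0.690, 0.478 and 1.75 TPM in GMPs, 2.75, 3.43 and 7.30 in preNeu cells and 15.5, 10.6 and 30.9 in matNeu cells. Its log2 change was 3.26 (SE 0.44, limma adjusted p = 4.23e-05) in matNeu cells against GMPs. In the same matNeu libraries Cd79a stood at 16.2, 18.6 and 33.1 TPM and Ms4a1 at 8.33, 11.5 and 16.0 TPM. Each of these genes was highest in replicate 3, but Spib was lowest in replicate 2 and Cd79a and Ms4a1 in replicate 1. Not all B cell markers were highest in replicate 3. The part of B cells in the level of Spib was not tested. Ehf, an epithelial ETS gene, was higher by 1.95 (SE 0.34, adjusted p = 0.000307) and Etv5 was lower by -0.88 (adjusted p = 0.0369). The call of Etv5 was lost under median-of-ratios scaling (-0.15, adjusted p = 0.691), and its sign turned under quantile normalization (0.51, adjusted p = 0.182).

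Of 22 partners of ETS factors, 21 were tested, and in matNeu cells against GMPs 4 were higher and 15 were lower, against 22.8% and 54.1% of all genes. Under median-of-ratios scaling 6 were higher and 11 lower, and under quantile normalization 7 and 8. The shares of all genes are again those of TPM as deposited, and the scalings moved the median of all genes to -0.20 and 0.03. At the first step 2 were higher and 10 lower (14.7% and 44.3% of all genes), and at the second 3 and 9 (22.9% and 39.8%). Irf8, the partner of PU.1 in monocytes and dendritic cells, stood at 548, 509 and 483 TPM in GMPs, 10.8, 12.7 and 13.9 in preNeu cells and 6.93, 7.60 and 19.2 in matNeu cells. It was lower by -5.53 (SE 0.30, limma adjusted p = 3.2e-08) in log2 units while Spi1 was higher. Gata2 and Gata1, factors of early and erythroid progenitors that act with or against ETS factors, were lower by -3.92 and -3.52 (adjusted p = 1.59e-05 and 1.22e-06).

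The partners with the largest rise were Cebpb, Ncor1 and Jun. Cebpb was higher by 3.58 (SE 1.08, limma adjusted p = 0.011), with 1.45, 8.49 and 100 TPM in matNeu cells, where replicate 3 stood far above the others. Ncor1, a corepressor subunit, was higher by 1.12 (adjusted p = 2.35e-05), and Jun, a partner of PU.1 and ETS1, by 1.07 (adjusted p = 0.00244). Gfi1, which encodes the repressor deleted in the Gfi1KO mice, stood at 8.01, 5.88 and 17.5 TPM in GMPs, 20.1, 23.2 and 29.2 in preNeu cells and 0, 0 and 0.145 in matNeu cells. It was highest in preNeu cells, as Ets1, Fli1 and Erg were, with a log2 change of 1.25 (adjusted p = 0.0108) at the first step and -4.57 (adjusted p = 9.26e-07) at the second. The beta subunits of GABPA had log2 changes of -0.43 (Gabpb1, adjusted p = 0.0255) and -0.85 (Gabpb2, adjusted p = 0.0048) in matNeu cells against GMPs. Under median-of-ratios scaling Gabpb1 turned to 0.44 (adjusted p = 0.0147) and Gabpb2 was -0.01 (adjusted p = 0.962), and under quantile normalization both were positive (0.38 and 0.42).

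Of 20 genes known as PU.1 targets in macrophages and neutrophils, 15 were higher and 3 lower in matNeu cells against GMPs, against 22.8% and 54.1% of all genes, and 2 did not pass the test. Under median-of-ratios scaling 18 were higher and 2 lower, and under quantile normalization 16 and 2. The shares of all genes are those of TPM as deposited, and the scalings moved the median of all genes to -0.20 and 0.03. At the first step 12 were higher and 4 lower (14.7% and 44.3% of all genes), and at the second 12 and 5 (22.9% and 39.8%). The median log2 change of the list was 2.19, against -0.92 over all genes. Itgam and Itgb2, the subunits of the integrin MAC-1, were higher by 5.80 (SE 0.15, limma adjusted p = 2.64e-10) and 5.44 (SE 0.15, adjusted p = 3.27e-10), and MAC-1 was part of the sort for preNeu and matNeu cells. Lyz2, lysozyme, was higher by 5.23 (adjusted p = 1.98e-09). Elane and Prtn3, proteases of primary granules that GMPs already make, were lower by -11.31 and -9.46 (adjusted p = 2.32e-08 and 3.2e-09). Btk was lower by -0.42 (adjusted p = 0.0223), and its call was reversed under median-of-ratios scaling (0.46, adjusted p = 0.00594).

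CHD4 was found at 7 of the 10 genes in WT GMPs, counting peaks in the gene or within 10 kb of its ends, where 32.4% of 21938 protein-coding genes had such a peak. Etv6 had 41 of the 95 peaks, Fli1 17, Elf1 15, Erg 13, Ets1 6, Elk3 2 and Elf4 1. Spi1, Ets2 and Gabpa had none, and their nearest CHD4 peaks lay 219, 27.3 and 20.1 kb away. The 3 genes without a peak are among the shorter ones, with lengths of 33.4, 19.0 and 28.9 kb, while Etv6 spans 234 kb. Of the 95 summits, 88 lay in introns, 5 at promoters (from 2 kb before to 500 bases after an annotated start), 1 in a UTR and 1 outside the gene.

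By number of CHD4 peaks Etv6 ranked 14 among all protein-coding genes, and Fli1 ranked 194, Elf1 261 and Erg 355. Longer genes can hold more peaks. With peaks counted per 100 kb, Etv6 had 16.1 and ranked 430, Elf1 12.4 and Fli1 12.1, and Erg 5.25. Etv6 was also the gene of the strongest site, an intronic peak at chr6:134113788-134116063 with a fold enrichment of 49.5, which ranked 307 among the 35790 CHD4 peaks. It was 2276 bases wide, 79.9 kb from the nearest annotated start, and the first sequence above is its summit. The next at Etv6 had fold enrichments of 30.1, 25.8 and 23.3, all in introns and all overlapped by a Gfi1KO peak. The strongest of Fli1 (chr9:32520213-32522060) had a fold enrichment of 25.7, that of Elf1 18.7, that of Erg (chr16:95438854-95440133) 18.4 and that of Ets1 9.93.

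**Figure D3:**
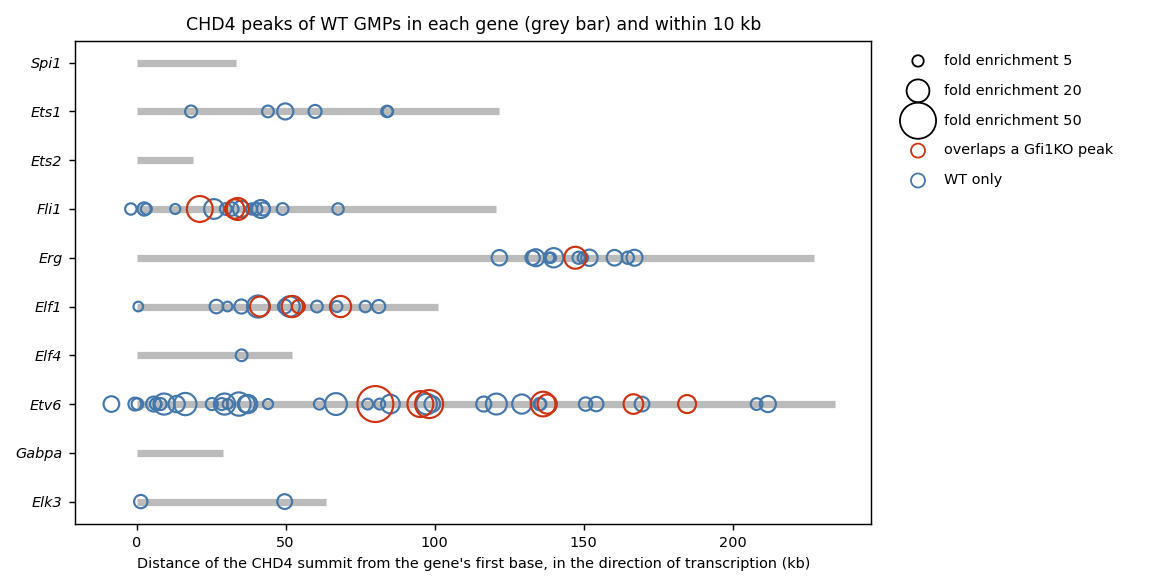
CHD4 peaks of WT GMPs (circles, area proportional to fold enrichment) by distance in kb from the first base of each gene in the direction of transcription; grey bars are the genes, red circles overlap a Gfi1KO peak and blue circles do not. Etv6 holds 41 of the 95 peaks, and Spi1, Ets2 and Gabpa hold none.

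The position of the peaks within the genes differed. At Erg all 13 were intronic, and none lay at a promoter. At Etv6, 2 of the 3 promoter peaks lay around the first start, with fold enrichments of 6.39 and 5.19, and the third at the start of a short transcript, with 9.92. At Fli1 a weak peak (fold enrichment 4.96) lay 1.91 kb before the start. At Ets1 the promoter peak, at chr9:32695984-32696225 with a fold enrichment of 6.52, lay 13 bases from an internal start that also had the only ATAC-seq peak of the gene. In the ATAC-seq list, 15 of the 95 CHD4 sites lay in a peak (15.8%, against 10.1% of all CHD4 sites), among them the strongest site of Etv6.

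In Gfi1KO GMPs, 4 of the 10 genes had a CHD4 peak, with 8 at Etv6, 4 at Elf1, 3 at Fli1 and 1 at Erg. Of the 95 WT peaks at ETS genes 15 overlapped a Gfi1KO peak by at least 1 base, 15.8%, against 18.5% of all 35790 WT peaks. The share was near that of all peaks. With 1 library per genotype this has no replicate check, and the Gfi1KO list was shorter (7316 peaks), so that a library with fewer reads or lower enrichment and a loss of CHD4 cannot be told apart. All 16 Gfi1KO peaks at these genes overlapped a WT peak.

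The WT peaks that had a counterpart had a median fold enrichment of 17.3 (6.49 to 49.5), and the other 80 of 6.64 (3.57 to 20.8), which is the direction seen over all WT peaks (21.2 and 6.83). The strongest peak without a counterpart was an intronic peak of Etv6 at chr6:134069905-134070317 with a fold enrichment of 20.8. None of the 5 promoter peaks of these genes had a counterpart, and neither had the 6 peaks of Ets1, the 2 of Elk3 and the 1 of Elf4. These peaks were weak, with fold enrichments of at most 9.93 at Ets1, 8.38 at Elk3 and 5.27 at Elf4. The promoter peaks also lay under 21.2, the median of all WT peaks with a counterpart. The share of all promoter peaks with a counterpart is not given here. With equal numbers of peaks, the 7316 best WT peaks by q-value included 22 at ETS genes, of which 11 (50.0%) had a counterpart, against 72.5% of all.

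H3K4me2 covered more bases at all 10 genes in preNeu cells than in GMPs, where 63.5% of all protein-coding genes had more. It covered more in matNeu cells than in GMPs at 8 of the 10 (49.0% of all genes), with Elf1 and Elk3 as the exceptions, and more in matNeu than in preNeu cells at 3 of the 10, namely Spi1, Ets2 and Fli1 (11.5% of all genes). The window here is the gene with 10 kb on either side. The median share of the window covered was 9.41% in GMPs, 32.7% in preNeu cells and 25.9% in matNeu cells, beside 3.83%, 6.43% and 4.81% over all genes. The median over all genes includes genes that did not pass the filter on TPM, and the lists differ in length (37643, 49578 and 44094 peaks), with 1 library each and no test.

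**Figure D4:**
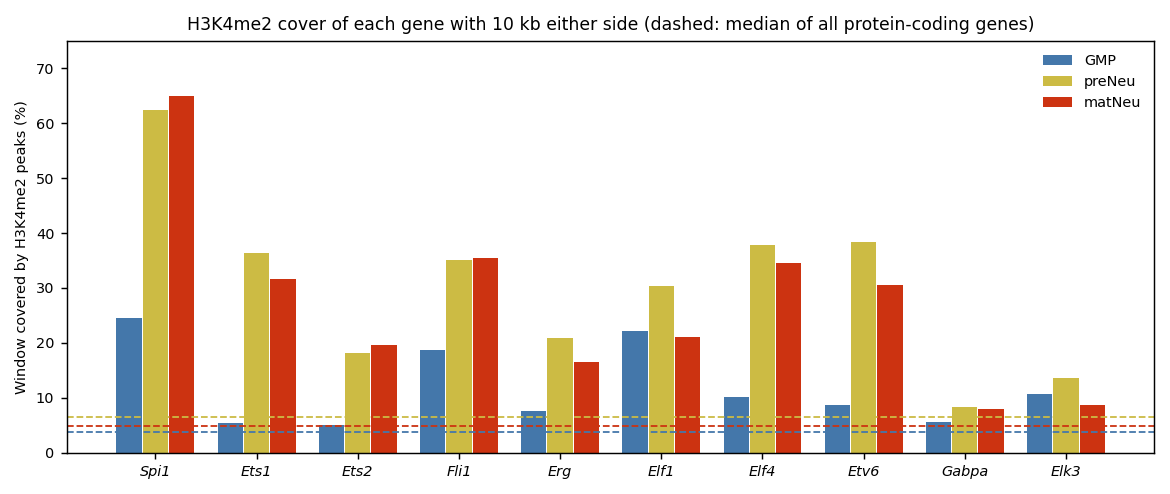
Share of each gene's window (the gene with 10 kb on either side, in percent) covered by H3K4me2 peaks in GMP, preNeu and matNeu cells, 1 library each; dashed lines are the medians over 21938 protein-coding genes. Spi1 had the highest cover in each stage, up to 65.0% in matNeu cells.

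Spi1 had the highest cover, 24.5% of its window in GMPs, 62.4% in preNeu cells and 65.0% in matNeu cells. In GMPs the mark formed a peak of 9.11 kb at chr2:91078204-91087315 over the first annotated start and one of 3.38 kb over the start 14.4 kb further in. In preNeu cells these were 14.6 and 15.5 kb wide, and in matNeu cells 15.3 and 19.4 kb. The first of these in preNeu cells, chr2:91077078-91091633, had a fold enrichment of 15.5, above 99.1% of the peaks of its list. Each of these regions also held an ATAC-seq peak. An upstream regulatory element of Spi1 that PU.1 itself binds is known from the literature on this gene to lie before its main start, and which of these peaks it is was not tested.

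At Ets1 the cover went from 5.50% in GMPs to 36.3% in preNeu and 31.7% in matNeu cells, and at Etv6 from 8.71% to 38.3% and 30.6%. At Elf4 it was 10.1%, 37.9% and 34.6%. At Erg it was 7.55%, 20.9% and 16.5%, while the mean TPM of Erg was 1.29 in matNeu cells. At Fli1, 18.7% became 35.0% and 35.5%, and a single peak of 47.3 kb from chr9:32498316-32545570 covered the promoter and first part of the gene in preNeu cells, where 99% of peaks were narrower than 11.2 kb. The widest peak of Fli1 was 8.56 kb in GMPs and 39.8 kb in matNeu cells.

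Elk3 had 10.7%, 13.6% and 8.70% in order of stage, and Gabpa 5.68%, 8.36% and 8.01%, with 1 peak at its promoter in each stage of 2.78, 4.08 and 3.91 kb. Elf1 had 22.1%, 30.4% and 21.1%. Ets2 had 5.01%, 18.1% and 19.7%, and its widest peak, at the promoter, was 1.59, 3.48 and 3.87 kb wide in order of stage. Gains of cover and of TPM did not go together for each gene. Every member gained cover in preNeu cells, and Elk3, Elf1 and Etv6 had lower TPM there. The fall of Etv6 did not pass the test under either scaling of TPM.

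The CHD4 sites of GMPs at ETS genes were set beside H3K4me2 of each stage. A site was counted as lying in a peak where the intervals overlapped by at least 1 base. Of the 95 sites, 42 (44.2%) lay in an H3K4me2 peak of GMPs, 86 (90.5%) in one of preNeu cells and 84 (88.4%) in one of matNeu cells. Over all 35790 CHD4 sites the shares were 37.8%, 59.5% and 52.5%, and over the 19860 sites in or within 10 kb of a protein-coding gene that passed the filter on TPM 43.1%, 67.8% and 61.1%. Sites without H3K4me2 in GMPs but with it in preNeu cells made up 44 of the 95 (46.3%), against 28.8% of those near tested genes.

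**Figure D5:**
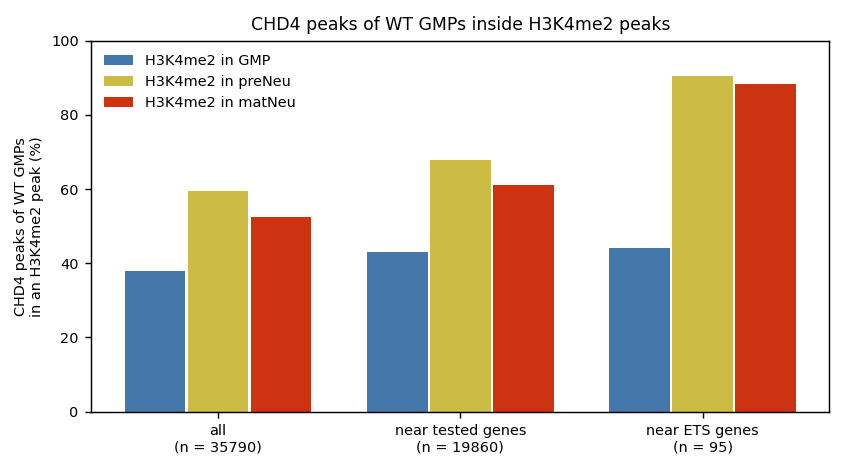
Percent of CHD4 peaks of WT GMPs that overlap an H3K4me2 peak of GMP, preNeu or matNeu cells, for all peaks, those near genes that passed the filter on TPM, and those near the 10 ETS genes. At the ETS genes the share went from 44.2% in GMPs to 90.5% in preNeu cells.

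These sites were not spread evenly over the genes and share 1 library per stage, so that no test was made. The lower fold enrichment of the GMP list of H3K4me2 applies to the shares by stage as well. H3K4me2 in preNeu and matNeu cells but not in GMPs was found at 40 sites, 42.1%, against 21.2% of all CHD4 sites. Etv6 held 23 of these 40, Erg 6, Fli1 4, Elf1 and Ets1 3 each and Elf4 1. The mark was present in all 3 stages at 41 sites, 43.2%, against 29.3% of all CHD4 sites. Of these 41, Etv6 held 13, Fli1 11, Elf1 8, Erg 5, and Ets1 and Elk3 2 each. Only 6 of the 95 sites had no H3K4me2 in any stage, 6.32%, against 33.3% of all CHD4 sites. All 15 sites that overlapped a Gfi1KO peak lay in H3K4me2 of preNeu and of matNeu cells, and 11 of them also in that of GMPs. Of the 80 without a counterpart, 31 lay in H3K4me2 of GMPs and 71 in that of preNeu cells. Shares over all CHD4 sites with or without a counterpart are not given here, so these counts describe the ETS genes only.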

How the data were processed

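RNA-seq of the 3 stages (3 libraries each), CHD4 ChIP-seq of WT and Gfi1KO GMPs, H3K4me2 ChIP-seq by stage and ATAC-seq (1 library each) were analysed, grouped by sample titles. The members and lists were chosen with earlier results of these data known. The authors deposited expression as TPM per gene. The submitters' notes name kallisto 0.44.0, while the methods of the study describe alignment to mm10 and counting, so the source of the TPM is not settled, and they carry no depth. No column of the table was left unused (0 columns). The peaks that the authors deposited carry fold enrichment as a linear ratio over background and −log10 q-values from MACS2 2.1.0 (submitters' notes). Both were used within a list only, apart from the median fold enrichment given for each H3K4me2 list. The GFI1 and H3K4me3 lists were not used, because their chromosomes and ends do not match GRCm38.

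Changes were tested with limma 3.58.1 (R 4.3.3) on log2(TPM + 1), with a variance trend, cell type as the only term and 1 fit over 9 libraries, keeping genes that reached 1 TPM in 3 or more libraries, two-sided, with Benjamini-Hochberg adjustment at 0.05. The fit was tested on simulated data. A fold change on this scale understates the change of low genes. The fit has no replicate block, and the check of pairing is given with the alternatives. The smallest p that an exact permutation of 3 against 3 libraries allows is 0.1, so none was used. Peaks were assigned to genes by GENCODE M21 (GRCm38), within 10 kb, with an overlap of at least 1 base between lists, using Python 3.11.15, numpy 2.4.6 and pandas 2.3.3. Plots were drawn with matplotlib 3.10.9. Of genes outside the 10 members, the text names the 3 called genes of each list with the largest change each way in matNeu cells against GMPs, genes that a result turns on, and the 3 genes most like Spi1. Where a symbol had several rows, as Itgam, the row with the GENCODE identifier was used. Alternatives were other pseudocounts, filters, scalings, fits, windows, overlaps and q-values, and leaving out each library. A marker of B cells, and the sum that includes it, is not reported here.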

Additional observations from a re-analysis of the deposited data

How the results depend on the processing

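Leaving out each library in turn gave 8 to 9 called members in preNeu against GMP, 8 in matNeu against preNeu and 9 in matNeu against GMP. A minimum log2 change of 1 left 5 in the first comparison. With the 7316 best WT peaks by q-value, 50.0% of CHD4 peaks at ETS genes were kept. With H3K4me2 peaks limited to those with a −log10 q of 5 or more, the mark covered more bases in matNeu than in preNeu cells at 1 member in place of 3. The log2 change of Etv6 in matNeu against GMP turned from -0.66 to 0.21 under median-of-ratios scaling and to 0.18 under quantile normalization. The cause was not tested. Of 510 recomputed log2 changes of members, 488 kept their direction and their side of the threshold, 12 lost and 8 gained a call and 2 turned. Outside the 2 scalings 6 of 450 changed, all of Erg in preNeu against GMP. Under the scalings 7 members rose and 2 fell in preNeu against GMP, and 5 rose and 2 fell in matNeu against GMP. In matNeu against preNeu 6 rose and 4 fell, where Elf4 and Etv6 gained a call. The shares of all genes called under these alternatives are not given here, so that these counts have no background beside them. Median-of-ratios scaling and quantile normalization moved the median of all genes to -0.09 and -0.01 in preNeu against GMP. It moved to -0.07 and 0.03 in matNeu against preNeu, and to -0.20 and 0.03 in matNeu against GMP.

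Same-numbered libraries deviated from their group means with correlations of -0.04 to 0.12, and 1 of 9 pairs exceeded 0.1. Libraries with different numbers had correlations of -0.13 to 0.07. With 3 libraries per group this cannot settle whether equal numbers mark paired samples. A fit with the replicate block called 9, 8 and 9 members, as without it, and 7652, 8142 and 10032 genes in all. For the peak lists no paired analysis was possible because each group is 1 library. The peak lists carry no depth, and a weak site cannot be told from an absent one.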
